A study of Rattus norvegicus with 24 samples.

Results

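Gene expression was compared between the cerebellum and the hippocampus of rat pups on postnatal day 7 (PND7) whose mothers had been given Aroclor 1254, a commercial mixture of polychlorinated biphenyls. The comparison was built from the 3 arrays of dosed cerebellum and the 3 arrays of dosed hippocampus at PND7, paired by the number of the mother in the sample title (dams 12, 15 and 18). These are 6 of the 24 arrays in the series. All mothers were Long-Evans rats treated by gavage with corn oil at 2 ml/kg, from gestation day 6 through PND21. The oil carried Aroclor 1254 at 6 mg/kg/day for the dosed dams and at 0 mg/kg/day for the undosed dams, so the undosed pups share the vehicle and the handling. From each litter 1 pup labelled male was taken at PND7 and another at PND14. The labels do not say in words that both tissues came from the same pup, so a pair shares at least its litter and age. The 6 arrays of undosed pups at PND7 (dams 1, 7 and 13) and the 6 arrays of dosed pups at PND14 (dams 12, 15 and 18) serve below to show where the same tissue difference recurs and where it differs. A p-value here rests on 3 dams per group. Each tissue was homogenised whole, so a lower level may mean fewer cells of a type or less RNA per cell, and these cannot be told apart.

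Cerebellum and hippocampus stand at different stages in a rat of this age. In the cerebellum, precursors of granule cells divide in the external granular layer, driven by sonic hedgehog from Purkinje cells, and their daughters migrate inward to form the most numerous neurons of the brain. In the hippocampus, pyramidal neurons are already in place and are building dendrites and synapses, while neurons are still being added to the dentate gyrus. Polychlorinated biphenyls are known to lower circulating thyroid hormone, which times both processes, and some congeners bind the aryl hydrocarbon receptor.

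The deposited values are log2 expression values for 15923 probe sets, of which 15866 are not controls. A probe set was tested if its value lay above the 40th percentile of the array in at least 3 of the 12 PND7 arrays, which left 10032. Group mates correlated with r from 0.995 to 0.996 across probe sets in dosed cerebellum and at 0.993 in dosed hippocampus, while arrays of the 2 tissues correlated with r from 0.955 to 0.962. The medians of the 6 arrays lay between 7.46 and 7.48. Their lower quartiles differed: 5.90 to 5.94 in cerebellum and 6.0 to 6.11 in hippocampus. The 5834 probe sets below the filter had a median difference of -0.17 in dosed pups, against 0.0 in undosed pups and -0.04 after quantile normalization, while the tested probe sets had 0.03. Small differences toward hippocampus in dim probe sets are given below as values and not counted among the calls. The label male was checked with Xist, the RNA made from the inactive X chromosome, which read 4.06 to 4.32 in the 6 dosed PND7 arrays. It read 9.70 and 10.5 in the undosed PND7 arrays of dam 13, against their label, so results in undosed pups are also given without that dam.

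Markers of the 2 tissues matched their labels, with 1 exception. Of 15 cerebellar markers 8 had a probe set with a single gene symbol, and the 7 that passed the filter were all higher in cerebellum. Of 14 hippocampal markers 8 had a probe set, 6 passed and 5 of these were higher in hippocampus. Of all probe sets tested 33.8% were called higher in cerebellum and 28.8% higher in hippocampus. The exception was Neurod2, a factor of differentiating glutamatergic neurons, which was 0.71 higher in cerebellum. Zic1, a zinc finger factor of cerebellar progenitors, read 8.14, 8.08 and 8.38 in the cerebellum of dams 12, 15 and 18 and 6.35, 6.66 and 6.21 in their hippocampus. Prox1, the homeobox factor of dentate granule neurons, read 7.14, 7.45 and 7.14 in cerebellum and 8.34, 8.83 and 8.98 in hippocampus. The 2 groups did not overlap for either gene, as was the case for 63.6% of all probe sets tested. List members given below by their difference alone were picked after their values were seen. Throughout, array values are given in the order of dams 12, 15 and 18, and a positive difference is higher in cerebellum. Emx1, En1 and En2 were among the markers without such a probe set and were not analysed here.

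Most of the transcripts measured differed between the tissues. Limma called 6280 of 10032 probe sets (62.6%) at an adjusted p under 0.05, 3388 higher in cerebellum (33.8%) and 2892 higher in hippocampus (28.8%). The 2 groups of 3 arrays did not overlap for 63.6% of the probe sets tested (34.1% higher in cerebellum, 29.5% higher in hippocampus). A call or a lack of overlap alone therefore says little about a gene, and the size of the difference is given with each count. Differences of at least 2-fold were called for 822 probe sets (8.19%), 441 higher in cerebellum (4.40%) and 381 higher in hippocampus (3.80%). Of 7296 genes tested, each by its brightest probe set, 54 were at least 4-fold higher in cerebellum and 43 at least 4-fold higher in hippocampus. The largest differences of all belonged to probe sets with no single gene symbol (-6.23 and 4.31), which were picked after their values were seen.

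The genes highest in cerebellum over hippocampus included markers of Purkinje cells, granule cells and dividing cells. Pcp2, which encodes a small regulator of G proteins made by Purkinje cells, read 10.97, 11.07 and 11.06 in cerebellum and 6.85, 6.95 and 6.49 in hippocampus, a difference of 4.27 ± 0.10 (limma standard error, SE, 3 dams; adjusted p = 1.38e-12) or 19.3-fold. Pax6, a homeobox factor of granule cells and their precursors, read 10.73, 10.56 and 10.84 against 6.18, 6.53 and 6.83 (4.20 ± 0.10, 18.3-fold, adjusted p = 1.89e-12). Car8, a carbonic anhydrase relative that binds the inositol trisphosphate receptor of Purkinje cells, read 10.62, 10.41 and 10.39 against 6.54, 6.62 and 6.67 (3.87 ± 0.10, 14.6-fold). The 2 tissues were more than 3 log2 units apart for these genes in every dam, and Purkinje and granule markers stand side by side at the top.

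Cbln1 encodes cerebellin 1, which granule cells secrete to organise their synapses with Purkinje cells. It read 11.33, 11.23 and 11.19 in cerebellum and 8.25, 7.56 and 7.47 in hippocampus (3.49 ± 0.11, adjusted p = 2.56e-11), with the hippocampus of dam 12 above those of the other dams. Ngfr, the low affinity neurotrophin receptor p75, read 8.67, 8.92 and 8.95 against 5.75, 5.51 and 5.99 (3.10 ± 0.10). Igfbpl1, a relative of the insulin-like growth factor binding proteins, read 10.36, 10.41 and 10.39 against 7.32, 7.40 and 7.08 (3.12 ± 0.15). The rest of the 15 largest were the exocyst relative Exoc3l1 (3.30 ± 0.12), the corepressor Skor1 (3.25 ± 0.12), the microfibril protein Mfap4 (3.07 ± 0.10), the kinase Map3k1 (2.63 ± 0.09) and 5 genes of DNA replication and mitosis. These last were Cks2 (2.88 ± 0.10), Pclaf (2.84 ± 0.10), Fam111a (2.83 ± 0.13), Pimreg (2.71 ± 0.12) and Mki67 (2.68 ± 0.11). For 8 of the 15, all 3 hippocampal arrays lay below the 40th percentile, so the size of the difference there depends on the floor of the array.

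The genes highest in hippocampus were led by Crym, which encodes mu-crystallin, a cytosolic protein that binds thyroid hormone. It read 12.30, 12.09 and 12.31 in hippocampus and 7.31, 7.14 and 7.12 in cerebellum, a difference of -5.04 ± 0.09 (adjusted p = 5.94e-14) or 33.0-fold. Gda, guanine deaminase, which shapes dendrites in hippocampal neurons, read 11.19, 11.30 and 11.23 against 7.17, 7.23 and 6.83 (-4.17 ± 0.09, 17.9-fold). Nr4a3, an orphan nuclear receptor induced by neuronal activity, read 10.32, 9.45 and 10.03 against 6.18, 6.05 and 6.02 (-3.85 ± 0.13, 14.4-fold). A second called probe set of Nr4a3 differed by only -0.92. For all 3 genes the spread within a tissue was under 1 log2 unit. Their agreement over the dams was a condition for being named here.

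Nrgn encodes neurogranin, which holds calmodulin in dendritic spines, and it read 11.63, 11.81 and 11.95 in hippocampus against 8.44, 8.22 and 8.19 in cerebellum (-3.51 ± 0.11). Lhx2, a LIM homeobox factor needed to form the hippocampus, read 8.29, 8.65 and 8.75 against 5.04, 5.0 and 5.18 (-3.49 ± 0.10). Gabra5, the GABA-A receptor subunit that carries tonic inhibition in pyramidal neurons, read 9.48, 9.88 and 9.81 against 7.25, 6.11 and 6.01 (-3.27 ± 0.22), and the cerebellum of dam 12 lay above the other cerebella by over 1 log2 unit. The other large differences were those of the neuropeptide Cck (-3.27 ± 0.08), the pseudokinase Camkv (-3.24 ± 0.10), the dendritic protein Ddn (-2.90 ± 0.10), Mpped1 (-3.42 ± 0.09), the kinase Cdkl2 (-2.81 ± 0.12), the POU factor Pou3f1 (-2.73 ± 0.10), the secreted guidance cue Sema3c (-2.70 ± 0.13), Rprml (-2.69 ± 0.12) and lipoprotein lipase, Lpl (-2.65 ± 0.12). For 6 of these 15 all 3 cerebellar arrays lay below the 40th percentile.

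**Figure D1:**
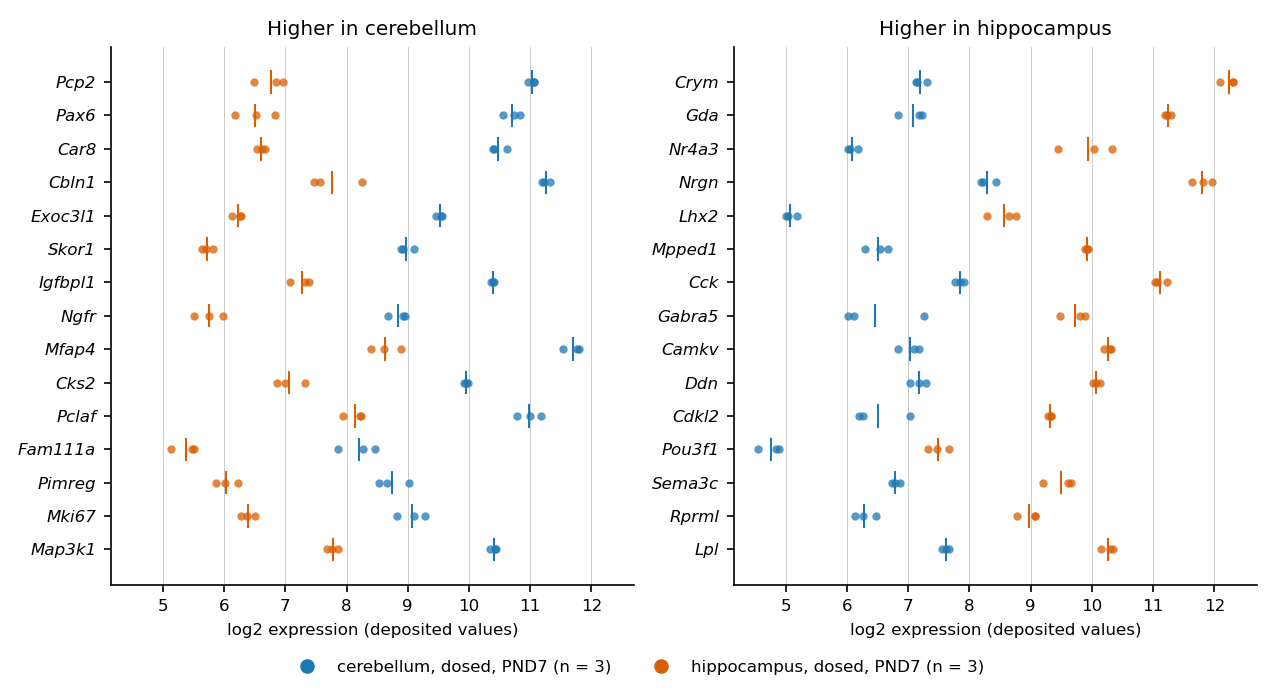
Deposited log2 expression (x axis) of the 15 genes with the largest difference in each direction, 1 row per gene, in dosed pups at PND7. Points are arrays (3 dams per tissue) and vertical bars are group means. The 30 genes were picked among called genes whose 2 tissues do not overlap, so the lack of overlap is part of the choice. Differences run from Pcp2 (4.27) and Crym (-5.04) down to Map3k1 (2.63) and Lpl (-2.65).

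Every cell cycle gene that passed the filter was called higher in cerebellum. Of 53 on the array, 44 passed the filter and 44 were called higher in cerebellum, 37 of them at least 2-fold. Of the 44, 0 were called higher in hippocampus. Over all probe sets tested 33.8% were called higher in cerebellum (4.40% at least 2-fold) and 28.8% higher in hippocampus. Because 11 of the 44 passed only through the cerebellar arrays, the 9 members below the filter count too: their differences were also positive, so that all 53 lay between 0.19 and 2.88. The median over the 53 was 1.51, beside -0.07 over all 10411 genes on the array. The mean level over the list was 8.44 to 8.48 in the 3 cerebella and 6.94 to 7.0 in the 3 hippocampi.

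The members covered each step of division. Mki67, the protein behind the Ki-67 proliferation stain, read 9.11, 8.83 and 9.28 in cerebellum and 6.28, 6.38 and 6.51 in hippocampus (2.68 ± 0.11, adjusted p = 2.13e-10). Cks2, a subunit that docks cyclin-dependent kinases, read 9.91, 9.98 and 9.95 against 6.87, 7.32 and 6.99 (2.88 ± 0.10). Among replication genes the helicase subunits Mcm2 to Mcm7 ranged from 0.86 (Mcm5) to 2.11 (Mcm6), and the sliding clamp Pcna stood at 1.67. Among mitotic genes the cyclin Ccnb2 stood at 2.47 ± 0.09, the kinesin Kif22 at 2.45 ± 0.09, topoisomerase Top2a at 2.31 and Cdk1, the kinase that starts mitosis, at 2.24. The smallest called differences were those of the phosphatase Cdc25b (0.51) and the G1 cyclin Ccne1 (0.49).

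Many genes of the G2 and M phases carry in their promoters a CCAAT box, bound by the factor NF-Y, and a cell cycle homology region (CHR), bound by the DREAM and MuvB complexes. The promoters of Cks2, Top2a and Mcm6 are shown because they are the 3 cell cycle genes with the largest differences whose 150 bases before the transcription start lie outside every annotated RefSeq gene. They are read 5′ to 3′ on the strand of the gene (minus in each case, build GRCr8, sequences from RefSeq), and capitals mark CCAAT or its reverse ATTGG and the CHR letters TTTGAA or their reverse TTCAAA.
Cks2, chr17:13727520-13727669: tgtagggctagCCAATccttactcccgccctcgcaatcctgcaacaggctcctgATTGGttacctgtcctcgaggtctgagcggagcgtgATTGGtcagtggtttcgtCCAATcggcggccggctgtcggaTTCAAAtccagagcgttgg
Top2a, chr10:84473094-84473243: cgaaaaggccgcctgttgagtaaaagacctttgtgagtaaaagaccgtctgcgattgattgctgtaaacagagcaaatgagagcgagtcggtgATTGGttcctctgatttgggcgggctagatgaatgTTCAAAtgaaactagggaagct
Mcm6, chr13:42404353-42404502: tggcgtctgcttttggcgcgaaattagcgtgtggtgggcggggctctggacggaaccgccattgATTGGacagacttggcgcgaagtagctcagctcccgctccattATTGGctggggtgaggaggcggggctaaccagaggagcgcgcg
The Cks2 promoter held 4 CCAAT boxes and 1 CHR, the Top2a promoter 1 of each, and the Mcm6 promoter 2 CCAAT boxes and no CHR. Over the 250 bases before the start, on both strands, 31 of 48 cell cycle genes with a promoter in the table held CCAAT (64.6%), 17 held TTTGAA (35.4%) and 15 held both (31.2%). Among all 27457 promoters these shares were 34.3%, 16% and 5.76%. The 2 motifs can share a base, as a pair did in the Mki67 and in the Cdca8 promoter (1 base each). A match describes the sequence, not binding.

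Granule cell precursors and the sonic hedgehog pathway went the same way. Of 19 precursor markers on the array, 16 passed the filter (3 only through cerebellum), and the median over the 19 was 1.30. Of the 16, 15 were called higher in cerebellum and 0 higher in hippocampus (93.75% in all, beside 62.6% of all probe sets tested). Neurod1, a factor of differentiating granule neurons, read 12.02, 11.98 and 12.03 in cerebellum and 9.85, 10.03 and 10.21 in hippocampus (1.98 ± 0.11). Nhlh1 (2.42 ± 0.09), Barhl1 (2.19 ± 0.10) and the axonal adhesion protein Cntn2 (2.17 ± 0.08) differed more. Neurod1 was thus well above the filter in hippocampus too.

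Of 11 hedgehog genes on the array only 5 passed the filter. All 5 were called higher in cerebellum, beside 33.8% of all probe sets tested. Smo, the membrane protein that transmits the signal, read 8.29, 8.21 and 8.14 in cerebellum against 7.08, 7.05 and 7.01 in hippocampus (1.17 ± 0.08). Boc, a coreceptor of the pathway, differed by 1.55 ± 0.10, and the targets Mycn and Ccnd1 by 1.30 ± 0.08 and 0.71. Sfrp1, counted in this list and among Wnt inhibitors, differed by 1.19 ± 0.10. The ligand Shh itself was below the filter, at -0.05, as were Hhip (-0.03) and Gli2 (0.68).

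Purkinje cells form a single layer, yet their markers included the largest difference toward cerebellum among the named genes. Of 22 on the array 17 passed (7 only through cerebellum), and the median over the 22 was 0.97. Of the 17, 14 were called higher in cerebellum and 2 higher in hippocampus (1 without dam 12). Together these were 94.1% of the 17, beside 62.6% of all probe sets tested. Calb1, the calcium buffer calbindin, read 11.22, 11.19 and 11.17 in cerebellum and 8.61, 8.70 and 8.81 in hippocampus, where dentate granule and CA1 neurons also make it (2.48 ± 0.09). Itpr1, the calcium release channel of the endoplasmic reticulum, differed by 1.72 and the glutamate transporter Slc1a6 by 1.86 ± 0.08. The developmental factors Ebf1 (1.91 ± 0.08) and Lhx1 (1.91) were close to each other. The 2 members higher in hippocampus were the channel genes Kcnma1 (-0.60) and Cacna1a (-0.24). Pvalb, the calcium buffer of mature Purkinje cells and interneurons, was below the filter at this age (6.44, 6.51 and 6.57 and 5.94, 5.96 and 6.0).

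Markers of mature granule cells were split. Of 19 on the array 14 passed, 3 only through cerebellum. Of the 14, 5 were called higher in cerebellum and 6 higher in hippocampus (78.6% in all, beside 62.6% of all probe sets tested). The median over the 19 was -0.19. Gabra6, the GABA-A subunit that marks the mature granule cell, was below the filter, with 6.58, 7.0 and 6.98 in cerebellum and 6.34, 6.60 and 6.47 in hippocampus. The giant cadherin Fat2 (2.03 ± 0.11) and Cadps2 (1.56 ± 0.16), which primes vesicles, were higher in cerebellum. Slc17a7, the vesicular glutamate transporter shared by granule cells and pyramidal neurons, read 11.09, 11.28 and 11.22 in hippocampus and 8.92, 9.25 and 9.16 in cerebellum (-2.09 ± 0.09). Calretinin, Calb2, was also higher in hippocampus (-1.05 ± 0.09).

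Markers of pyramidal and dentate neurons were mainly higher in hippocampus. Of 37 on the array 28 passed the filter (3 only through hippocampus), 24 were called higher in hippocampus, 15 of them at least 2-fold, and 1 was called higher in cerebellum, the actin adaptor Baiap2 (0.41). Those called were 89.3% of the 28, beside 62.6% of all probe sets tested. The median over the 37 was -0.89. Camk2a, the alpha subunit of the calcium/calmodulin kinase of the postsynaptic density, read 8.11, 8.11 and 8.59 in hippocampus and 6.24, 5.91 and 5.67 in cerebellum (-2.33 ± 0.19, adjusted p = 1.91e-07). The beta subunit Camk2b differed by -1.76, the pentraxin Nptx1 by -2.14 and the cannabinoid receptor Cnr1 by -1.10. Bdnf, whose product supports synapse growth, was below the filter at 5.55, 5.60 and 5.48 in hippocampus and 5.09, 5.21 and 5.14 in cerebellum.

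Forebrain transcription factors were mixed. Of 24 on the array 18 passed, 3 only through hippocampus and 1 only through cerebellum. Of the 18, 10 were called higher in hippocampus, 9 of them at least 2-fold, and 6 were called higher in cerebellum. Together these were 88.9% of the 18, beside 62.6% of all probe sets tested. The median over the 24 was -0.50. After Lhx2, the mineralocorticoid receptor Nr3c2 (8.14, 8.26 and 8.24 in hippocampus against 6.26, 5.89 and 5.95, -2.18 ± 0.10), Lmo3 (-2.12 ± 0.10) and Mef2c (-2.08) led. Higher in cerebellum were Otx2 (2.15 ± 0.18), which is also made by choroid plexus, and Sox11 (1.41), a factor of newborn neurons. The 10 hindbrain patterning genes on the array were all below the filter, with differences from -0.53 to 0.91.

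**Figure D2:**
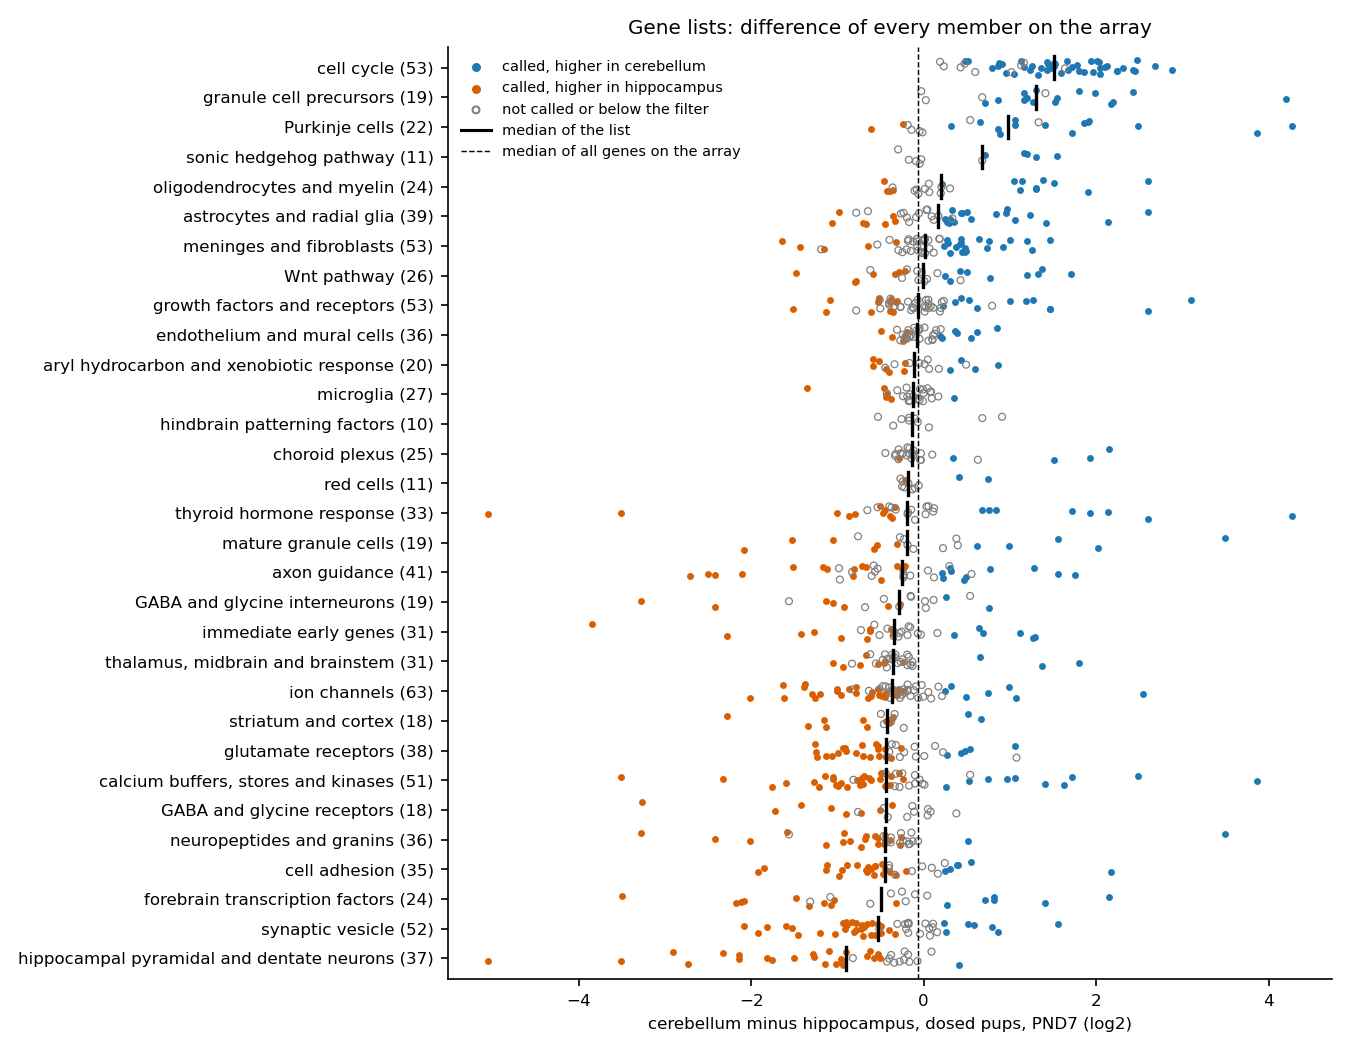
Difference between cerebellum and hippocampus (x axis, log2) of every member of the 31 lists in dosed pups at PND7, with the number of members on the array in brackets. Filled points are called (blue higher in cerebellum, orange higher in hippocampus), open points are not called or below the filter, black bars are list medians, and the dashed line is the median of all genes on the array (-0.07); medians run from 1.51 for cell cycle to -0.89 for hippocampal neurons.

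Genes of the synapse were mainly higher in hippocampus. Of 52 synaptic vesicle genes 43 passed, 3 only through hippocampus and 1 only through cerebellum. Of the 43, 30 were called higher in hippocampus and 7 higher in cerebellum (86.0% in all, beside 62.6% of all probe sets tested). The median over the 52 was -0.52. Syt5, a calcium sensor of secretory vesicles, read 10.03, 10.16 and 10.40 in hippocampus against 8.30, 8.35 and 8.51 in cerebellum (-1.81 ± 0.08). Synpr, synaptoporin of the mossy fibre terminals, differed by -1.92 ± 0.21 and the fusion protein Stx1a by -1.60 ± 0.09. General components differed less, such as Snap25 (-0.78), Vamp2 (-0.70) and Syp (-0.49). Among the 7 higher in cerebellum, Vamp1 (0.87) and Syt9 (0.79) followed Cadps2.

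Glutamate receptors and their scaffolds showed the same direction with smaller sizes. Of 38 on the array 32 passed, 6 only through hippocampus and 2 only through cerebellum. Of the 32, 21 were called higher in hippocampus and 5 higher in cerebellum (81.25% in all, beside 62.6% of all probe sets tested). The median over the 38 was -0.43. The AMPA receptor subunits Gria1 (-0.91) and Gria2 (-0.51) and the NMDA receptor subunits Grin1 (-0.79), Grin2b (-0.53) and Grin2a (-0.38) were all called higher in hippocampus. The widest differences were those of Grin3a (-1.26 ± 0.12), the presynaptic receptor Grm7 (-1.25 ± 0.10) and Grin2d (-1.24 ± 0.13). Homer3, a scaffold of Purkinje spines, was higher in cerebellum (1.06).

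Of 18 GABA and glycine receptor genes 12 passed, 1 only through hippocampus. Of the 12, 8 were called higher in hippocampus and 0 higher in cerebellum (66.7% in all, near the 62.6% of all probe sets tested). The median over the 18 was -0.44. After Gabra5 came Glra2, the fetal glycine receptor subunit, at 8.52, 8.83 and 8.94 in hippocampus and 7.34, 6.94 and 6.83 in cerebellum (-1.73 ± 0.16), then Gabrb1 (-1.42 ± 0.08) and Gabrb2 (-1.07 ± 0.09). Gad1, the larger form of glutamate decarboxylase, read 10.23, 10.00 and 9.98 in cerebellum and 9.85, 10.12 and 9.89 in hippocampus and was not called (0.12 ± 0.10, adjusted p = 0.321). A second probe set of Gad1 was called higher in cerebellum (0.54). Interneuron peptides were hippocampal, Npy at -2.42 ± 0.12 and Tac1 at -1.13 ± 0.09. Of 19 interneuron markers 12 passed, 7 were called higher in hippocampus and 2, Reln (0.76) and Slc32a1 (0.26), higher in cerebellum. Together these were 75% of the 12, beside 62.6% of all probe sets tested.

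Among 63 ion channel genes 42 passed, 4 only through hippocampus and 1 only through cerebellum. Of the 42, 29 were called higher in hippocampus and 7 higher in cerebellum (85.7% in all, beside 62.6% of all probe sets tested). The median over the 63 was -0.36. The main cerebellar member was Kcnj6, a potassium channel opened by G proteins. It read 10.27, 9.95 and 10.19 in cerebellum and 7.58, 7.44 and 7.76 in hippocampus (2.54 ± 0.09). A second called probe set of Kcnj6 differed by only 0.73. Kcnip2, a partner of A-type potassium channels, differed most toward hippocampus (-2.01 ± 0.10), followed by the calcium channel genes Cacna2d3 (-1.63 ± 0.08) and Cacna1h (-1.61 ± 0.09). Calcium buffers, stores and kinases had both directions. Of 51 on the array 43 passed, 3 only through hippocampus and 2 only through cerebellum. Of the 43, 28 were called higher in hippocampus, led by Nrgn and Camk2a, and 10 higher in cerebellum, led by Car8 and Calb1. Together these were 88.4% of the 43, beside 62.6% of all probe sets tested.

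Of 36 neuropeptide and granin genes 28 passed, 2 only through hippocampus. Of the 28, 20 were called higher in hippocampus and 2 higher in cerebellum, Cbln1 and Penk (0.52). Those called were 78.6% of the 28, beside 62.6% of all probe sets tested. The median over the 36 was -0.45. The somatostatin receptor Sstr1 differed by -2.02 ± 0.11. Of 35 cell adhesion genes 31 passed (2 only through each tissue), with 21 called higher in hippocampus and 6 higher in cerebellum. Together these were 87.1% of the 31, against the same 62.6%. Opcml (-1.92 ± 0.11) and the protocadherin Pcdh8 (-1.85 ± 0.14) led on the hippocampal side and Cntn2 on the cerebellar side. Of 41 axon guidance genes 27 passed, 4 only through hippocampus and 2 only through cerebellum. Of the 27, 16 were called higher in hippocampus and 10 higher in cerebellum (96.3% in all, beside 62.6% of all probe sets tested). The hippocampal members included the ephrin receptors Epha5 (-2.50 ± 0.16) and Epha4 (-2.42 ± 0.12) and the semaphorin receptor Nrp1 (-2.10 ± 0.10), while the cue Ntn1 (1.75) and the receptor Plxnb2 (1.56) were higher in cerebellum. Without dam 12 the cerebellar count of this list was 6.

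Secreted signals and their receptors showed no common direction. Of 53 growth factor genes 36 passed, 4 only through cerebellum and 1 only through hippocampus, and 12 were called higher in each tissue. The share called was 66.7% of those that passed, near the 62.6% of all probe sets tested. The cerebellar side held Ngfr, the BMP relative Gdf10 (10.06, 10.05 and 10.06 in cerebellum against 7.25, 7.57 and 7.55, 2.60 ± 0.09) that Bergmann glia make, and the receptor Ret (1.47 ± 0.13). The hippocampal side held Fgf13 (-1.51 ± 0.10) and the neurotrophin receptor Ntrk3 (-1.08). Of 26 Wnt genes 20 passed. Of the 20, 9 were called higher in cerebellum and 7 higher in hippocampus (80% in all, beside 62.6% of all probe sets tested). Secreted Wnt inhibitors fell on both sides, with Wif1 (1.71 ± 0.13), Sfrp2 (1.32 ± 0.08) and Sfrp1 higher in cerebellum and Frzb (-0.79) and Dkk3 (-0.79) higher in hippocampus. Wnt4 was higher in hippocampus (-1.48 ± 0.09) and the effector Tcf7l2 in cerebellum (1.38 ± 0.13).

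Genes tied to thyroid hormone, which the dosing is known to affect, were mixed. Of 33 on the array 25 passed, 11 were called higher in hippocampus and 8 higher in cerebellum (76% of those that passed, beside 62.6% of all probe sets tested), with a median of -0.19 beside -0.07 over all genes. Many of them are markers of single cell types named above (Crym, Nrgn, Pcp2, Mbp). Among direct hormone targets, the corepressor Hr read 7.75, 7.64 and 7.53 in hippocampus and 6.77, 6.94 and 6.84 in cerebellum (-0.79 ± 0.08) and the Krüppel-like factor Klf9 read 8.65, 9.05 and 8.82 against 8.42, 8.26 and 8.42 (-0.47 ± 0.10). The receptor gene Thra was higher in hippocampus (-0.87), and Thrb was below the filter at 5.0 to 5.20 in cerebellum and 5.67 to 5.79 in hippocampus.

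Of 20 genes of the aryl hydrocarbon and xenobiotic response 15 passed. Of the 15, 7 were called higher in hippocampus and 4 higher in cerebellum, 0 of them by 2-fold. The share called was 73.3% of those that passed, beside 62.6% of all probe sets tested. The receptor Ahr differed by -0.41 and its target Cyp1b1 by -0.58 ± 0.10, from 7.86, 7.73 and 7.64 in cerebellum and 8.16, 8.42 and 8.41 in hippocampus. Cyp1a1, the most inducible target, was below the filter, at 6.05, 6.32 and 6.14 in cerebellum and 6.69, 6.60 and 6.22 in hippocampus. Tiparp (0.60 ± 0.09) and the antioxidant regulator Nfe2l2 (0.87 ± 0.14) were higher in cerebellum. With the 6 arrays alone 4 in place of 7 were called higher in hippocampus.

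Immediate early genes, which neurons switch on when active, were called in both directions. Of 31 on the array 10 were called higher in hippocampus and 6 higher in cerebellum, with 13 below the filter. Of those that passed 88.9% were called, beside 62.6% of all probe sets tested. The hippocampal members were headed by the Nr4a family, with Nr4a2 at 9.0, 8.80 and 8.83 in hippocampus and 6.72, 6.49 and 6.60 in cerebellum (-2.28 ± 0.10) and Nr4a1 at -0.96, and by Egr1 (-1.42 ± 0.11). Fos was below the filter (-0.51). The cerebellar members were Gadd45g (1.29 ± 0.08), Dusp5 (1.27), Ier2 (1.12), Jund (0.69), Dusp1 (0.64) and Klf10 (0.35).

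Of the oligodendrocyte genes that passed the filter 70% were called, beside 62.6% of all probe sets tested, with more calls toward cerebellum. By direction, 33.8% of all probe sets tested were called higher in cerebellum and 28.8% higher in hippocampus. Mbp, myelin basic protein, read 11.75, 11.59 and 11.45 in cerebellum and 8.67, 9.25 and 9.06 in hippocampus (2.60 ± 0.14, 6.08-fold). Cldn11, the tight junction protein of myelin, read 9.60, 9.12 and 8.96 against 7.26, 7.39 and 7.29 (1.91 ± 0.19) and Mobp differed by 1.52 ± 0.17. Of 24 oligodendrocyte genes 20 passed, 2 only through cerebellum. Of the 20, 10 were called higher in cerebellum, 9 of them at least 2-fold. Another 4 were called higher in hippocampus, among them the precursor markers Pdgfra (-0.35) and Cspg4 (-0.42). The median over the 24 was 0.20, beside -0.07 over all genes on the array. Without dam 15 that 4 became 1.

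Of 39 astrocyte and radial glia genes 35 passed, 18 were called higher in cerebellum and 7 higher in hippocampus. The share called was 71.4% of those that passed, beside 62.6% of all probe sets tested. After Gdf10, Hopx (2.14 ± 0.09), Aldh1l1 (1.42 ± 0.09) and the bicarbonate transporter Slc4a4 (1.23 ± 0.11) led on the cerebellar side, and Clu (-1.06) and Acsbg1 (-0.98) on the hippocampal side. Gfap, the astrocyte filament, was not called, at 10.80, 11.06 and 10.87 in cerebellum and 10.65, 11.12 and 10.84 in hippocampus (0.04 ± 0.09, adjusted p = 0.683). Of 27 microglial genes 17 passed, 5 were called higher in hippocampus and 1 higher in cerebellum. Microglial genes were thus called less often than others, at 35.3% of those that passed beside 62.6% of all probe sets tested. Except for Coro1a (-1.35 ± 0.09), which neurons also express, the differences of the 5 were under 0.5, such as Aif1 (-0.43 ± 0.10), whose other probe set, below the filter, had the opposite sign (0.12).

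Meningeal and fibroblast genes were called about as often as other probe sets. Of 53 meningeal and fibroblast genes 42 passed, 20 were called higher in cerebellum and 5 higher in hippocampus (59.5% of those that passed, beside 62.6% of all probe sets tested). Their median was 0.02, beside -0.07 over all genes, and without dam 15 the 20 became 11. All 9 meningeal check markers were above the filter and 8 were called higher in cerebellum, with their mean at 8.58 to 8.97 in the 3 cerebella and 7.59 to 8.14 in the 3 hippocampi. Igf2, a growth factor of meninges and choroid plexus, read 11.59, 11.34 and 11.11 in cerebellum and 10.29, 9.20 and 10.17 in hippocampus (1.46 ± 0.18), while its other 3 probe sets, below the filter, had the opposite sign. Col1a2 read 10.64, 10.29 and 10.11 against 9.31, 8.60 and 9.35 (1.26 ± 0.19). The part of meninges in the results above was not tested.

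The choroid plexus signal varied from array to array. Of 25 choroid plexus genes 10 passed, and the median over the 25 was -0.14. Of the 10, 4 were called higher in cerebellum (2 without dam 15) and 1 higher in hippocampus. Together these were 50% of the 10, beside 62.6% of all probe sets tested. Ttr, transthyretin, its most abundant product and a carrier of thyroid hormone, read 12.67, 12.95 and 11.52 in cerebellum and 12.53, 11.39 and 7.44 in hippocampus, so that 1 hippocampus (dam 12) matched the cerebella and another (dam 18) lay far below. Its difference of 1.93 ± 0.70 had an adjusted p of 0.0268, and with dam 15 left out the difference was 2.11 (adjusted p = 0.0729). Without dam 18 it was 0.85 (adjusted p = 0.319), and without the dam as a block the adjusted p was 0.113. Enpp2 (1.51 ± 0.34) and Otx2 (2.15 ± 0.18) were higher in cerebellum in every dam. In hippocampus Otx2 read 5.26, 4.94 and 4.75, below the 40th percentile also in dam 12, where Ttr was high. Whether the differences of Enpp2 and Otx2 come from choroid plexus was not tested. Sostdc1 was not called, and Kl and Kcnj13 were below the filter. The mean of the 7 choroid plexus check markers ran from 7.50 to 8.09 in cerebellum and from 6.29 to 7.48 in hippocampus.

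Red cell transcripts varied with the dam. Of 11 red cell genes on the array 4 passed, and the median over the 11 was -0.18. Of the 4, 2 were called higher in cerebellum and 1 higher in hippocampus (75% in all, beside 62.6% of all probe sets tested). Hbb, a haemoglobin chain, read 12.20, 12.65 and 11.91 in cerebellum and 11.58, 11.81 and 11.14 in hippocampus (0.74 ± 0.08), highest in dam 15 in both tissues, and Alas2 followed (0.41 ± 0.10), whose groups overlapped and which was not called without dam 15 (0.28) or without the block. The anion exchanger Slc4a1 was called higher in hippocampus (-0.21), though not without dam 12, 13 or 15 or without the block, and Ahsp was below the filter (-0.10). Of 36 endothelial genes 23 passed, with 7 called higher in cerebellum and 5 higher in hippocampus, 0 of them by 2-fold. Without dam 15 these counts were 4 and 2. The share called was 52.2% of those that passed, beside 62.6% of all probe sets tested. Mylk stood at 0.85 ± 0.10 and Kdr at 0.55 ± 0.12. Markers of neighbouring brain regions were mixed. Of 31 for thalamus, midbrain and brainstem 12 passed, 8 were called higher in hippocampus and 3 higher in cerebellum. Together these were 91.7% of the 12, beside 62.6% of all probe sets tested. The 3 were led by Zic1 (1.80) and Tcf7l2 (1.38). Slc17a6, a vesicular glutamate transporter, read 9.32, 8.33 and 8.71 in cerebellum and 9.47, 9.92 and 9.79 in hippocampus (-0.94 ± 0.19). Of 18 for striatum and cortex 12 passed, 10 were called higher in hippocampus, led by Nr4a2 and Pde10a (-1.34 ± 0.09), and 2 higher in cerebellum. All 12 were thus called, beside 62.6% of all probe sets tested. Of the striatal check markers, the dopamine receptor Drd2 (-0.65) and Rgs9 (-0.35) were called higher in hippocampus and Ppp1r1b (0.67) higher in cerebellum. The striatal genes Drd1 and Adora2a and the brainstem genes Th and Chat were below the filter in both tissues, and the cortical genes Rorb and Cux2 were too.

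**Figure D3:**
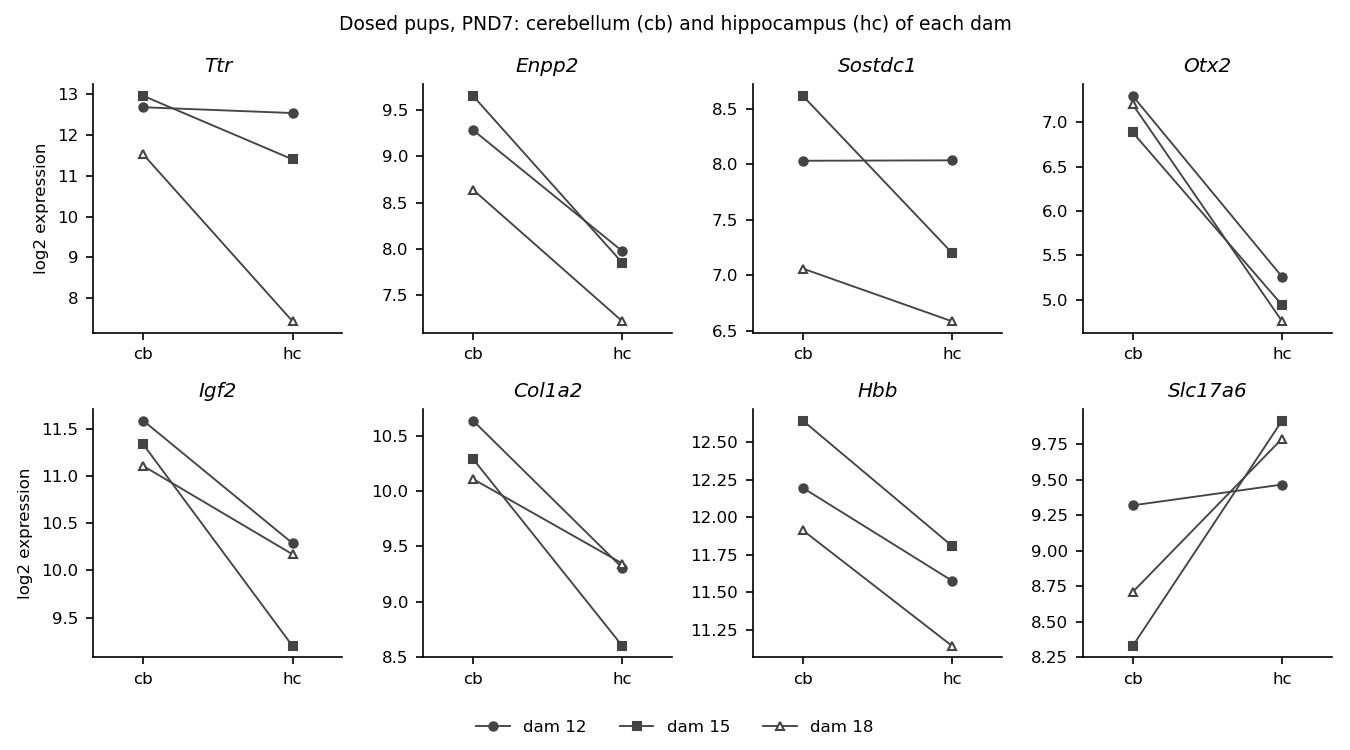
Deposited log2 expression (y axis, scaled per gene) of 8 genes of choroid plexus, meninges, red cells and neighbouring regions in the cerebellum (cb) and hippocampus (hc) of each dosed dam at PND7, with a line joining the 2 tissues of a dam. Ttr in hippocampus runs from 7.44 (dam 18) to 12.5 (dam 12), while Otx2 is higher in cerebellum in all 3 dams.

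The same tissue difference was present in undosed pups, which share no array or dam with the dosed comparison. Limma called 5479 probe sets there (54.6%), and 4254 without dam 13. Of the 5479, 2927 were higher in cerebellum (29.2%), 2552 higher in hippocampus (25.4%) and 741 at least 2-fold apart (7.39%), 333 toward cerebellum (3.32%) and 408 toward hippocampus (4.07%). In dosed pups the larger share of the 2-fold calls was toward cerebellum (441, against 381 toward hippocampus). Of those 441, 296 were also called at least 2-fold higher in cerebellum in undosed pups, which is 67.1% of the dosed and 88.9% of the undosed calls. For hippocampus the 328 shared were 86.1% and 80.4%. Of the probe sets called higher in cerebellum in dosed pups, 2532 of 3388 were also called so in undosed pups, which is 74.7% of the dosed and 86.5% of the undosed calls. For hippocampus the 2066 shared calls were 71.4% of the dosed and 81% of the undosed. Of the 822 differences of at least 2-fold in dosed pups, 821 were called with the same sign in undosed pups, and 812 of the 821 tested without dam 13. The 2 sets of differences had r = 0.94 across the 10032 probe sets, as a description. All 30 genes with the largest differences were called in undosed pups with the same sign, for example Pcp2 at 4.68 ± 0.10 and Crym at -4.99 ± 0.09.

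Whether dosing changed the tissue difference was tested directly as an interaction. Limma called 2 of 10032 probe sets (0.0199%), both with a more positive difference in dosed pups. The unadjusted limma p was under 0.05 for 1767 of the 10032, a larger share than the 0.05 that no difference at all would give. A probe set that was not called therefore need not have the same tissue difference in both groups. The cause of this excess was not tested. Slc4a10, a sodium bicarbonate transporter of neurons and choroid plexus, read 7.64, 7.30 and 7.43 in cerebellum and 7.71, 7.45 and 7.55 in hippocampus of dosed pups. In undosed pups (dams 1, 7 and 13) it read 7.20, 7.41 and 7.23 in cerebellum and 8.42, 8.42 and 8.0 in hippocampus. The tissue difference was thus -0.11 ± 0.09 with dosing and -1.0 ± 0.09 without, and the change between them was 0.89 ± 0.13 (adjusted p = 0.0491). All 3 dosed hippocampi lay below all 3 undosed hippocampi.

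Aplp2, a relative of the amyloid precursor protein, was the other, through a probe set that is not its brightest. That probe set read 7.59, 7.29 and 7.86 in dosed cerebellum and 6.40, 6.18 and 6.56 in dosed hippocampus. In undosed pups it read 7.16, 7.14 and 7.27 in cerebellum and 6.69, 6.71 and 6.80 in hippocampus, and the change in the tissue difference was 0.74 ± 0.11 (adjusted p = 0.0491). Without dam 13 Slc4a10 stayed called at 1.0 ± 0.14 (adjusted p = 0.0492) and Aplp2 did not (0.75 ± 0.14, adjusted p = 0.148). Without dam 12 both were among the calls, and without dam 1, 7, 15 or 18 neither was. Neither passed without the dam as a block, where the adjusted p values were 0.0826 for Slc4a10 and 0.101 for Aplp2. Both adjusted p values lie at the edge of the threshold.

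The genes next in order did not pass. Toward a higher difference with dosing these were the zinc finger gene Zfp386 (0.77 ± 0.12, adjusted p = 0.0623), Atp1b2 (0.66 ± 0.11), a sodium pump subunit of astrocytes, Tmf1 (0.79 ± 0.14) and Socs6 (0.71 ± 0.13), a brake on cytokine signals. Toward a lower difference they were Hhipl1 (-0.60 ± 0.12, adjusted p = 0.0777), the serotonin receptor Htr5b (-0.68 ± 0.13), Miox (-0.60 ± 0.13), Umod (-0.66 ± 0.14) and the class I gene RT1-A (-0.66 ± 0.14). Miox (7.08, 7.35 and 7.07 in cerebellum and 7.75, 7.76 and 7.41 in hippocampus) and Umod lay near the 40th percentile of the arrays (6.87 to 6.96). Probe sets below the filter had a median tissue difference of -0.17 in dosed and 0.0 in undosed pups. Of the members of the 31 lists, 0 had an interaction call by their brightest probe set.

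**Figure D4:**
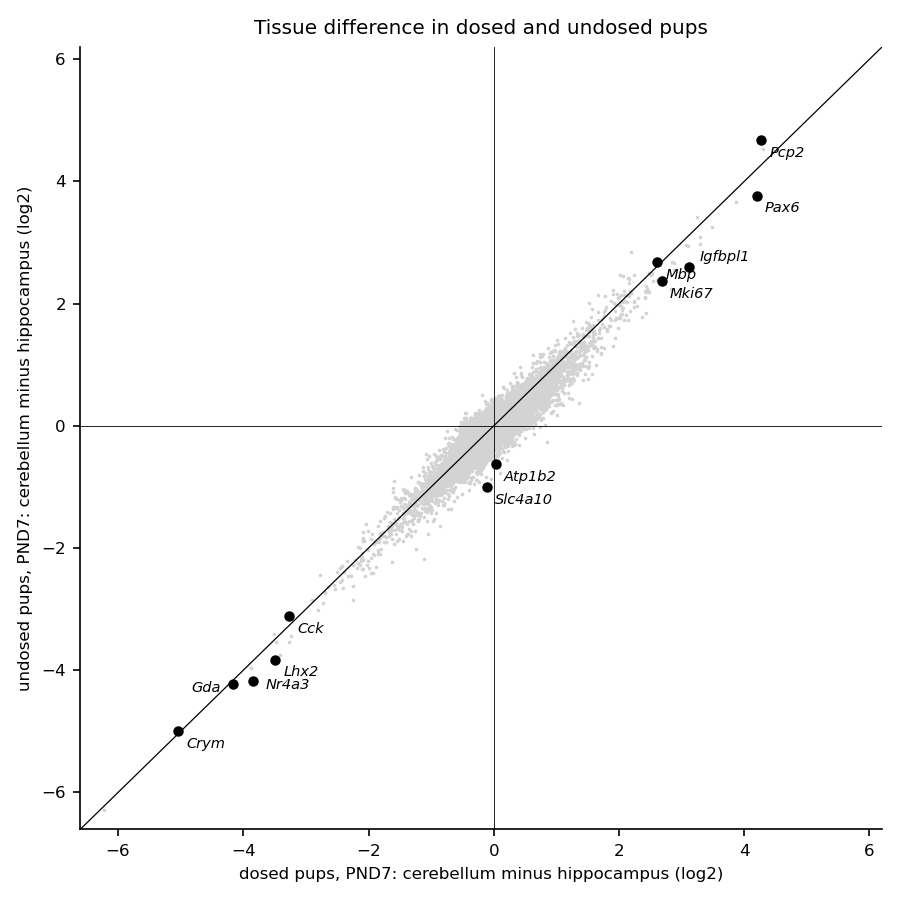
Tissue difference (cerebellum minus hippocampus, log2) of the 10032 probe sets tested at PND7, in dosed pups (x axis) against undosed pups (y axis), with the line of equality and 12 genes named by their brightest probe set. Pcp2 and Crym lie at the 2 ends, and Slc4a10 lies at -0.11 and -1.0.

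At PND14 other pups of the same dams showed the same overall pattern. Limma called 5269 of 10110 probe sets (52.1%), 28.4% higher in cerebellum and 23.7% higher in hippocampus, and 896 were at least 2-fold apart (8.86%). Of 811 that were at least 2-fold apart at PND7 and tested at both ages, 785 were called with the same sign at PND14 and 3 with the opposite sign. The change of the tissue difference between the ages was called for 1049 probe sets (10.4%), 562 with a more positive difference at PND7 (5.56%) and 487 with a more positive difference at PND14 (4.82%). Without dam 12 this count was 553, without dam 15 it was 644 and without dam 18 it was 170. It was 612 without the dam at an age as a block. Mki67, Mbp, Gabra6, Pvalb, Syt4, Fibcd1 and Hr, described next, were called whichever dam was left out.

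Genes of the cell cycle were less cerebellar at PND14. For 35 of the 44 tested the difference was called more toward cerebellum at PND7, and for 0 more toward cerebellum at PND14. Over all probe sets tested these shares were 5.56% and 4.82%. Mki67 had a mean of 9.07 in cerebellum at PND7 and of 7.34 at PND14, while in hippocampus the means were 6.39 and 6.03, so that the difference went from 2.68 to 1.30 (change 1.38 ± 0.15, adjusted p = 2.44e-04). Mbp also had a larger difference at PND7 (1.88 ± 0.30), with means of 11.60 and 13.04 in cerebellum at the 2 ages. In hippocampus it read 8.67, 9.25 and 9.06 at PND7 and 12.64, 11.42 and 12.88 at PND14. In that tissue the PND14 array of dam 15 lay more than 1 log2 unit below those of dams 12 and 18.

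Markers of mature Purkinje and granule cells went the other way. Of 16 mature granule markers tested in the dosed arrays 8 had a difference called more toward cerebellum at PND14, as did 8 of 19 Purkinje markers. In either list 0 were called more toward cerebellum at PND7. Over all probe sets tested these shares were 4.82% and 5.56%. At PND7 only 14 and 17 members of the 2 lists passed the filter. Gabra6 and Pvalb were below it there and were tested here through PND14 arrays, so these counts are not independent of the filter. The 8 granule markers include Slc17a7, which was higher in hippocampus at PND7 and whose change was -1.06 ± 0.17, so that its difference shrank. Gabra6 read 10.57, 9.14 and 10.61 in cerebellum at PND14 against 6.58, 7.0 and 6.98 at PND7, and its difference was larger at PND14 by 3.47 ± 0.28 (change of -3.47). Here too the array of dam 15 was the lowest. Pvalb read 10.62, 10.05 and 10.91 at PND14 (change -2.55 ± 0.12) and Slc1a6 read 10.34, 10.39 and 10.45 (change -2.34 ± 0.14). Pcp2 widened its difference from 4.27 to 5.85 (change -1.58 ± 0.14).

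Several other genes named for the smallest p had a difference more toward hippocampus at PND14, while Il16 and Atp2a3 went the other way. Wipf3, which binds an actin regulator, read 7.62, 8.08 and 7.95 in hippocampus at PND7 and 10.32, 9.91 and 10.24 at PND14 (change 2.30 ± 0.15). Fibcd1 overlapped between the tissues at PND7, at 6.86, 6.92 and 7.16 in cerebellum and 6.75, 6.94 and 6.98 in hippocampus. Its difference stood at -2.45 at PND14 (change 2.54 ± 0.23), with means of 5.77 in cerebellum and 8.21 in hippocampus at that age. Cracdl (1.78 ± 0.14), Ildr2 (1.55 ± 0.13) and the claudin Cldn10 (1.54 ± 0.14) likewise became more hippocampal by PND14. Camk2a moved from -2.33 to -3.80. The cytokine Il16 and the calcium pump Atp2a3 had differences more toward cerebellum at PND14, with changes of -1.91 ± 0.14 and -2.29 ± 0.19.

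For 75 genes the tissue difference was called at both ages with opposite signs. Such reversals were rare: over all probe sets tested at both ages there were 94 in 9956. Among those at least 2-fold apart at PND7 there were 3 in 811. Syt4, a vesicle protein, read 10.57, 10.25 and 10.58 in hippocampus and 9.02, 8.87 and 9.13 in cerebellum at PND7, a difference of -1.46 ± 0.09. At PND14 it read 9.33, 9.87 and 9.36 and 10.37, 10.53 and 10.47, a difference of 0.93 ± 0.10, and the change was -2.39 ± 0.14 (adjusted p = 2.61e-06). The thyroid hormone target Hr went from -0.79 ± 0.08 to 0.69 ± 0.14, with cerebellar values of 8.95, 7.54 and 8.75 at PND14, the lowest again in dam 15. Klf9 went from -0.47 to 0.06, and this change was not called (-0.53 ± 0.16, adjusted p = 0.0533).

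**Figure D5:**
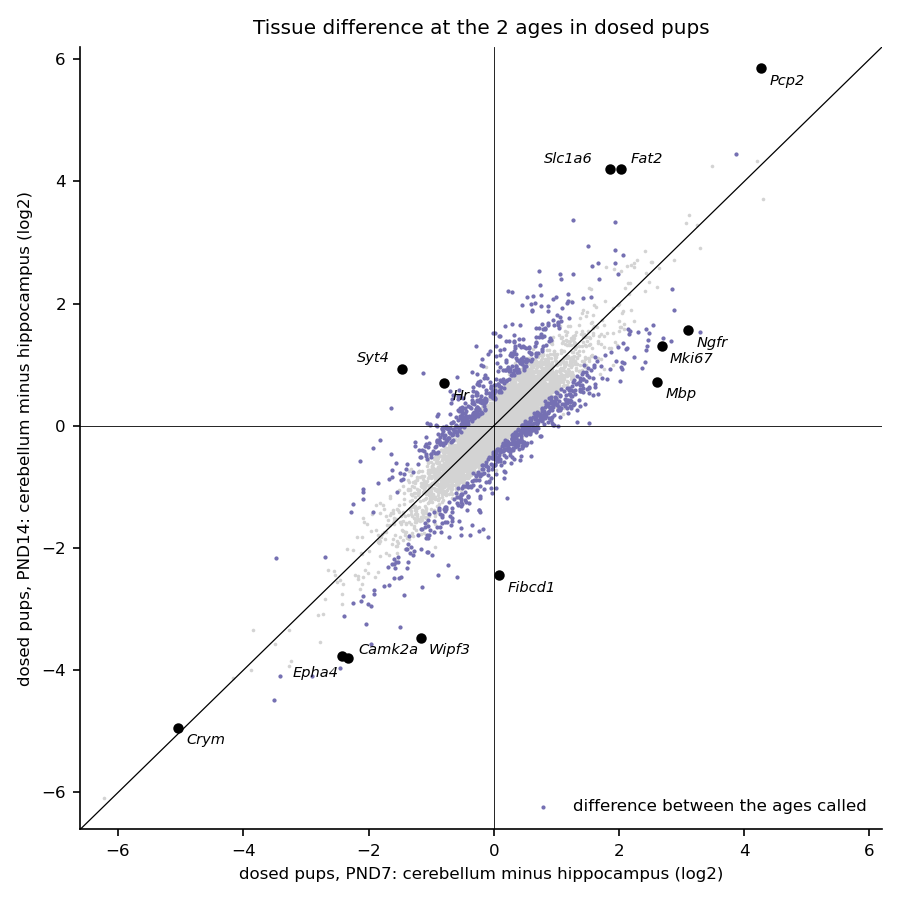
Tissue difference (cerebellum minus hippocampus, log2) in dosed pups at PND7 (x axis) against PND14 (y axis), 1 point per probe set tested at both ages, with the line of equality and 13 genes named. Purple points have a difference between the ages that was called; Slc1a6 and Fat2 lie above the line, Mbp, Mki67 and Ngfr below it, and Syt4 and Hr change sign.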

How the data were processed

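Total RNA from whole cerebellum and hippocampus was labelled as biotinylated cRNA and hybridised to Affymetrix rat arrays, per the labels' protocols. The authors deposited 1 log2 expression value per probe set and array; no source used here gives the software, background correction or normalization behind it, and no detection calls were used, so the number of arrays limits the precision. The scale was read from the values. No further normalization was applied, and 57 control probe sets were left out.

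Of the 15866 other probe sets 12783 had 1 gene symbol in the platform annotation, 312 had several and 2771 had none, and 12748 of the named ones matched a RefSeq gene. A gene was represented by the probe set with the highest mean over the 12 PND7 arrays. Among named genes, another probe set below the filter had the opposite sign for Aif1, Igf2, Otx2, Slc4a1 and Vcan. Besides Nr4a3 and Kcnj6, a second called probe set fell under 2-fold for Col1a2 (0.93), Glra2 (-0.96), Slc4a4 (0.57), Smo (0.66) and Sstr1 (-0.96).

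Limma 3.58.1 in R 4.3.3 (lmFit and eBayes, two-sided, Benjamini-Hochberg over all probe sets tested) was run on the 12 PND7 arrays with the dam as a block, which gave the dosed and undosed tissue differences and the test between them. A second fit on the 12 dosed arrays, with the dam at an age as a block, gave the PND14 difference and the test between ages. Standard errors therefore use the spread shared by 12 arrays. The pairing comes from the dam number in the titles. Deviations from the group means correlated between the tissues of a dam from -0.06 to 0.30 (median 0.20), with 4 of 6 dams over 0.1. A probe set was called at an adjusted p under 0.05. The fits were tested on simulated data.

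Genes named were the 15 largest differences in each direction with no overlap, up to 4 called genes per list, 22 fixed genes on the array, the 5 smallest p in each direction of both tests between differences, and the genes on either side of the threshold (Atxn2l at 0.23 inside and Abca2 at 0.19 outside). Members and lists were chosen with earlier results of these data known. Alternatives covered the block, normalization, filter, variance prior, arrays in the fit, probe set and each dam left out. Motifs were searched in the RefSeq promoter table.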

Additional observations from a re-analysis of the deposited data

Results flagged for a closer look

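Tests of a difference between tissue differences singled out the following values, each given as the limma estimate on the log2 scale. Between dosed and undosed pups at PND7, 2 probe sets were called, those of Slc4a10 (0.89) and Aplp2 (0.74).

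Between PND7 and PND14 in dosed pups, 1049 probe sets were called, and 51 of the named genes were among the genes called. Positive values mean a difference more toward cerebellum at PND7. Among genes of dividing cells these were Cks2 (0.98), Pclaf (0.60), Fam111a (1.43), Pimreg (1.27), Mki67 (1.38), Ccnb2 (1.06) and Kif22 (1.15). Among glial, vascular and signalling genes they were Mbp (1.88), Aldh1l1 (0.86), Hopx (0.56), Cldn10 (1.54), Kdr (0.55), Ngfr (1.53), Smo (0.75), Tcf7l2 (1.05), Sfrp2 (1.25), Socs6 (0.89) and Gadd45g (0.70). Among genes of neurons and synapses they were Nrgn (0.98), Mpped1 (0.68), Ddn (1.20), Camk2a (1.47), Kcnj6 (0.90), Epha4 (1.34), Opcml (0.76), Htr5b (0.68), Wipf3 (2.30), Cracdl (1.78), Ildr2 (1.55) and Fibcd1 (2.54).

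Negative values mean a difference more toward cerebellum at PND14. Cerebellar genes with such values were Pcp2 (-1.58), Car8 (-0.58), Fat2 (-2.17), Gabra6 (-3.47), Pvalb (-2.55), Slc1a6 (-2.34), Atp2a3 (-2.29), Il16 (-1.91), Boc (-0.56) and Neurod1 (-0.50). The others were Slc17a7 (-1.06), Gabrb2 (-1.12), Cacna2d3 (-0.79), Synpr (-1.56), Syt4 (-2.39), Rprml (-0.55), Prox1 (-0.59), Nr4a2 (-0.87), Hr (-1.48), Atp1b2 (-0.74) and Cyp1a2 (-0.48).

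Of these 51 genes, 41 were called without dam 12, 41 without dam 15 and 23 without dam 18, with 50 tested each time, and 22 were called in all 3. Car8, Cyp1a2, Hopx, Kdr and Neurod1 were called in 0 of the 3. Prox1 was called without dam 12, but not without dam 15 (adjusted p = 0.0798) or without dam 18 (-0.35, adjusted p = 0.347).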

How the results depend on the processing

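For 141 named genes tested, 1629 of 1678 values under 13 alternatives kept their direction and their side of the threshold, 40 lost the call, 4 gained it and 5 reversed. The reversed values belong to differences near 0: leaving out 1 dam gave -0.0153 (without dam 12) to 0.236 for Gad1, -0.0133 (without dam 12) to 0.0924 for Gfap and -0.00741 (without dam 15) to 0.0646 for Atp1b2. Atp1b2 was also -0.00997 after quantile normalization and -0.0108 in the 24-array fit. In the 24-array quantile-normalized fit without a block, calls fell to 3747 for dosed pups at PND7, 3152 for undosed pups, 3465 for PND14 and 314 for the difference between ages. Requiring a difference of at least 1 on the log2 scale left 822, 741 and 896. With no filter 8863 probe sets were called in dosed pups, 43.0% of them higher in cerebellum against 53.9% with the filter. After quantile normalization over the arrays of the fit, 3200 were called higher in cerebellum and 3188 higher in hippocampus, in place of 3388 and 2892. Leaving out 1 dosed dam gave 5402 to 5666 calls in dosed pups at PND7 (5961 without undosed dam 13). Leaving out 1 dam gave 4254 to 4966 in undosed pups, 4250 to 4685 at PND14 and 170 to 644 between ages. The cause of these shifts was not tested.

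The test between dosed and undosed pups gave 4 calls after quantile normalization, 1 with the 60th percentile filter, 0 to 8 with 1 dam left out, and 0 with an intensity trend, in the 23-array fit, in the 24-array fit and without the block. Without the dam as a block the pairing is ignored, and calls were 6224 in dosed pups, 5420 in undosed pups, 4722 at PND14 and 612 between ages. Dim probe sets limit the sizes given, since upstream background handling is not known here. The undosed PND7 arrays of dam 13, high in Xist against their label, were left out in a fit added after seeing the data, which called 5961 of 10001 probe sets in dosed pups, 5953 of them shared.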
